A study of Mus musculus with 6 samples.

Results

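Elastic fibre genes were followed through single-cell RNA sequencing of the aged mouse lung. The set held 10 genes, chosen by symbol from the feature list of the count matrices: Eln, Fbn1, Fbln1, Fbln2, Fbln5, Lox, Loxl1, Loxl2, Mfap4 and Mfap5. They were 10 of 31054 features, and each was found once. An elastic fibre has a core of crosslinked elastin on a scaffold of fibrillin microfibrils. Elastin is secreted as the monomer tropoelastin, fibulins help to place it on the microfibrils, and lysyl oxidases crosslink it. In the lung these fibres lie in alveolar septa, airway walls, blood vessels and the pleura, and give the organ its recoil.

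Lungs came from male C57BL/6 mice of 21 months, with 3 libraries labelled p16-DTR and 3 control libraries. The first group was p16-CreERT2/R26-LSL-DTR, in which the p16 (Cdkn2a) gene drives a tamoxifen-inducible Cre that switches on a diphtheria toxin receptor. Control mice were p16-CreERT2 and carried the Cre without the receptor. Both groups were injected with tamoxifen on 5 days and, after 2 weeks, with diphtheria toxin on 5 days, and lungs were taken 2 weeks after that. The receptor allele is therefore the labelled difference, and both groups received Cre, tamoxifen and toxin. Each library mixed 20000 sorted CD45-negative with 9000 sorted CD45-positive cells of 1 lung, so the proportion of immune to other cells that entered it was set by the sort. The labels give no pairing of mice and no batch, and p-values measure only the spread between these 6 libraries.

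The libraries held 13482 to 17332 barcodes and 254200305 to 344421685 unique molecular identifiers (UMIs, which count RNA molecules). Between 13025 and 16884 cells were retained (at least 500 UMIs and 300 genes, at most 15% mitochondrial UMIs), with a median of 17091 to 18495.5 UMIs per cell. Marker genes, none of them a member of the set, placed 78.7% to 82.6% of these cells in 1 of 21 classes. The markers of a class, on which the gate selects, were each found in 78.3% to 99.2% of peribronchial fibroblasts and in 38.4% to 99.9% of venous endothelial cells. Pairs of libraries shared 59 to 94 barcodes. Cdkn2a, whose high expressers the toxin is meant to remove, stood at 7.10, 8.57 and 7.31 CPM (UMIs of a gene per 1000000 UMIs of the same cells) under the p16-DTR label and at 1.15, 2.60 and 2.84 CPM in the controls. It was thus higher under the label that should have less of it, with a log2 difference of 1.86 (adjusted p = 0.126). In alveolar fibroblasts, its mean was 5.45 against 0.137 CPM, and that difference passed the test (edgeR quasi-likelihood test with Benjamini-Hochberg adjustment, adjusted p = 0.000267). Directions below therefore refer to the labels.

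The genes lie apart from each other in the mouse genome (GRCm38, GENCODE M21, whole gene from first to last annotated base). Eln is on chromosome 5, 134702593 to 134747323, minus strand. Fbn1 is on chromosome 2, 125300594 to 125507993, minus strand. Fbln1 is on chromosome 15, 85205949 to 85286535, plus strand, and Fbln2 on chromosome 6, 91212455 to 91272540, plus strand. Fbln5 is on chromosome 12, 101746565 to 101819055, minus strand. Loxl1 is on chromosome 9, 58287738 to 58313186, minus strand, and Loxl2 on chromosome 14, 69609068 to 69695834, plus strand. Mfap4 is on chromosome 11, 61485431 to 61488900, plus strand, and Mfap5 on chromosome 6, 122505845 to 122529290, plus strand. The position of Lox is not given here. Of genes counted in the files, those on the opposite strand overlap Eln (Gm30003), Fbn1 (Gm9913), Loxl2 (Gm27177) and Mfap4 (Mapk7). Whether counting used strand is not given in the sources used here, so reads of such a pair may not be told apart.

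The 2 fibulin genes Fbln1 and Fbln5 were the least alike of the members in their levels across cell classes. The sequences just before their annotated starts are shown for that reason, a choice made after their values were seen. They are the 250 bases before a RefSeq start on GRCm38.p6, 5′ to 3′ along the gene's strand. Each gene has 2 RefSeq starts. For Fbln1 the one shown has the only window free of annotated untranslated regions, and for Fbln5, where both windows are free of them, it is the first listed. Motifs were searched on both strands and did not overlap each other, and matches are in capitals. The E box searched was CACGTG. The GC box searched was GGGCGG. The TATA box searched was TATAAA, and the remaining motif, bound by NF-Y, was CCAAT. The Fbln1 window is chr15:85205699-85205948, plus strand, and its single match is CACGTG.
Fbln1: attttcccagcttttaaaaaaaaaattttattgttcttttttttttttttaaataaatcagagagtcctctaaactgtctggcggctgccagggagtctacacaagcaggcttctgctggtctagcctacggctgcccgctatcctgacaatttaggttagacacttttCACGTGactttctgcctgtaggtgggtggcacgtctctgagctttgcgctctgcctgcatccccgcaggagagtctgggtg
The Fbln5 window is chr12:101819120-101819369, minus strand. Its matches are 1 CCAAT and 2 GC boxes, which read CCGCCC here because GGGCGG is on the other strand.
Fbln5: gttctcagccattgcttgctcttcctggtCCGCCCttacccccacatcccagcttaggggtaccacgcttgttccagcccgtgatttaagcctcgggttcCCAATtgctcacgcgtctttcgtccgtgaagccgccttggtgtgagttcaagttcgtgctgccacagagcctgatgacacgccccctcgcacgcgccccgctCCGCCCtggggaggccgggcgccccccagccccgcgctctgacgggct
GC content was 46.4% in the Fbln1 window and 65.2% in the Fbln5 window, against a median of 52.4% over 32817 such windows of the genome. CACGTG was present in 6.02% of those windows, GGGCGG in 32.7%, CCAAT in 33.8% and TATAAA in 12.4%. A match describes the letters and does not show that a factor binds there. Of the 10 genes, 4 had a start in the RefSeq table. The windows of Fbn1 and Fbln2 overlapped an annotated untranslated region and are not printed.

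The transcript of the core protein was highest in contractile and fibroblast classes. Over the 6 libraries, Eln, which encodes tropoelastin, averaged 2048 ± 684 CPM in smooth muscle cells (SD, n = 6). It followed at 1060 ± 449 in peribronchial fibroblasts, 873 ± 194 in alveolar fibroblasts, 736 ± 115 in adventitial fibroblasts, 615 ± 242 in venous endothelium, 614 ± 238 in mesothelial cells and 498 ± 82.6 in arterial endothelium. These neighbours in the order overlapped, and part of the order went by label. Eln was higher in smooth muscle than in peribronchial fibroblasts in 4 of 6 libraries, among them every control. It was higher in peribronchial than in alveolar fibroblasts in 3 of 6, which were those labelled p16-DTR, and lower in every control. The mean and SD of peribronchial fibroblasts thus pool groups that differ. Below them came pericytes (217 ± 151), lymphatic endothelium (164 ± 27.1) and general capillary endothelium (135 ± 25.9). Aerocytes, the other capillary class, had 15.3 ± 5.41, less than general capillary cells in 6 of 6 libraries. B cells, which should not express Eln, held 3.51 ± 0.793 CPM and serve as the background of free RNA. Across all members, 180 such neighbouring pairs were compared with exact sign-flip permutation tests over 6 libraries, two-sided. With 6 libraries such a test cannot pass adjustment over 180 pairs unless most pairs reach its lowest possible p. The smallest adjusted p was 0.128, nothing is drawn from it, and steps are given by how many libraries showed them.

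**Figure D1:**
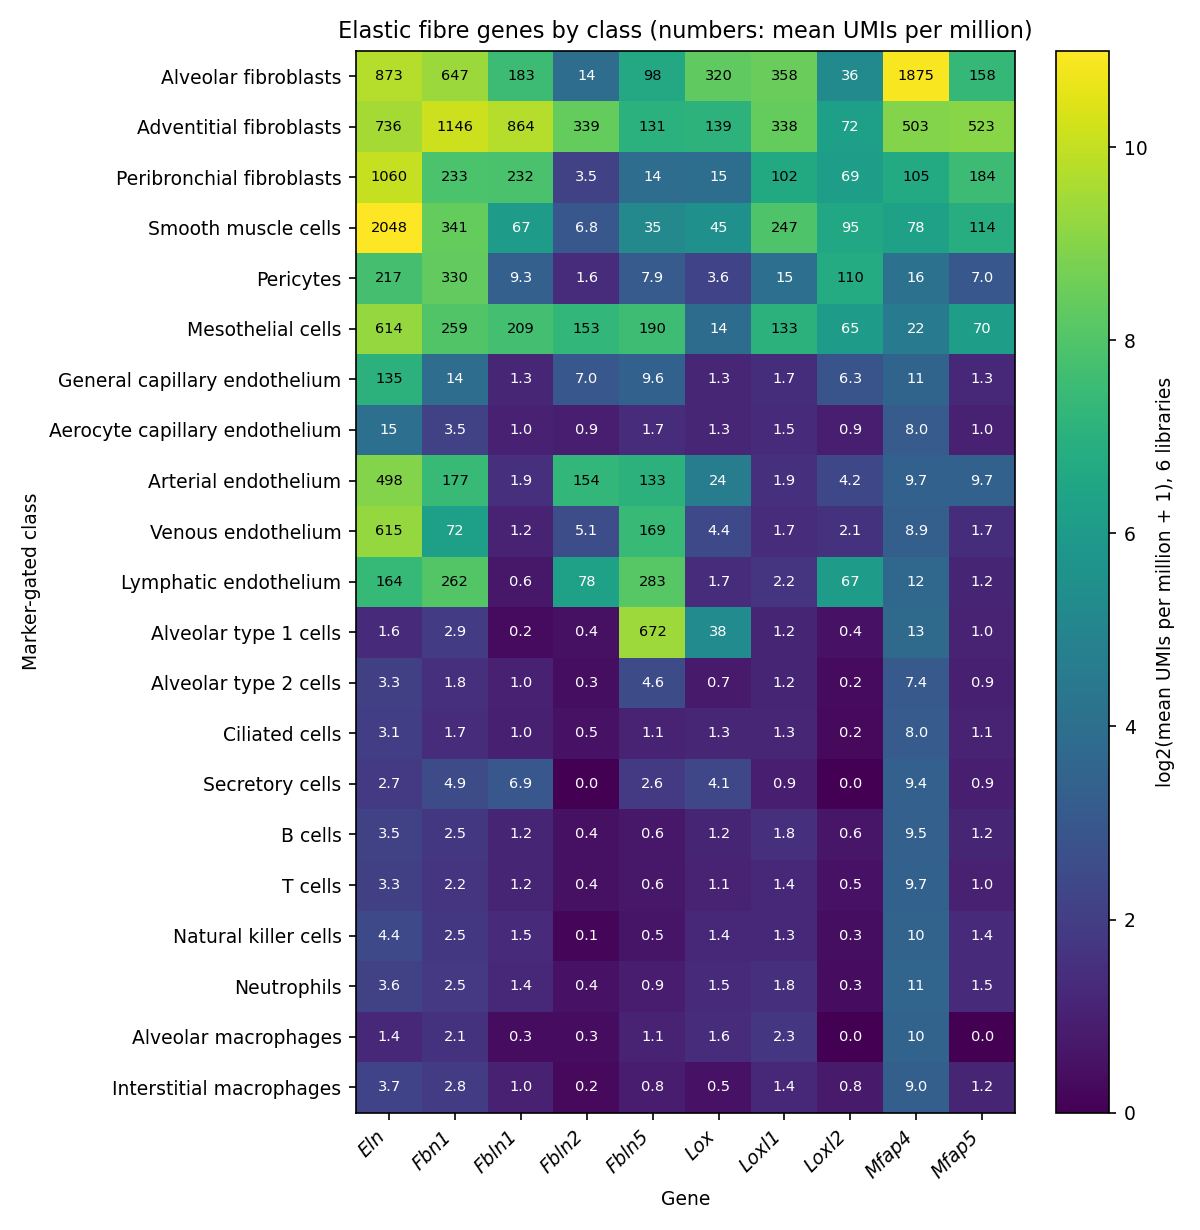
Heat map of the 10 elastic fibre genes (columns) in 21 marker-gated cell classes (rows), each field giving the mean CPM over 6 libraries, coloured on a log2(mean + 1) scale. Mesenchymal classes held most members, Fbln5 reached 672 in alveolar type 1 cells, and immune classes were near background.

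Microfibril genes divided between fibroblast classes. Fbn1, which encodes fibrillin-1, the main microfibril protein, had 1146 ± 119 CPM in adventitial fibroblasts and 647 ± 59.3 in alveolar fibroblasts, and this step was seen in 6 of 6 libraries. It was lower in smooth muscle (341 ± 58.6), pericytes (330 ± 35.7), lymphatic endothelium (262 ± 11.3), mesothelial cells (259 ± 41.4) and peribronchial fibroblasts (233 ± 18.1). Mfap4, a microfibril-associated glycoprotein that binds elastin, had 1875 ± 305 CPM in alveolar fibroblasts, 503 ± 105 in adventitial fibroblasts and 105 ± 27.2 in peribronchial fibroblasts. Each of those steps was seen in 6 of 6 libraries. Mfap5, a small microfibril-associated glycoprotein, was ordered differently, with 523 ± 42.7 CPM in adventitial, 184 ± 16.4 in peribronchial and 158 ± 33.8 in alveolar fibroblasts. Both of its steps were also seen in 6 of 6 libraries.

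The 3 fibulins, secreted proteins that link elastin to microfibrils and basement membranes, led in adventitial fibroblasts (Fbln1 and Fbln2) or in alveolar type 1 cells (Fbln5). Fbln1 stood at 864 ± 56.5 CPM in adventitial fibroblasts and at 232 ± 34.8 in peribronchial fibroblasts, lower in 6 of 6 libraries. Fbln2 also led in adventitial fibroblasts (339 ± 54.3), followed by arterial endothelium (154 ± 29.0) and mesothelial cells (153 ± 83.2). Fbln5, which binds elastin and integrins, was highest outside the mesenchyme. Its level in alveolar type 1 cells, the flat cells of the gas-exchange surface, was 672 ± 100 CPM, with a range of 585 to 839 over 6 libraries. Lymphatic endothelium had 283 ± 29.1, lower in 6 of 6 libraries, then mesothelial cells (190 ± 35.6), venous endothelium (169 ± 34.9), arterial endothelium (133 ± 32.3), adventitial (131 ± 15.5) and alveolar fibroblasts (97.8 ± 12.5). Only 24 to 63 alveolar type 1 cells per library stand behind the first of these values. The same cells had Eln at 1.58 ± 1.19 and Fbn1 at 2.88 ± 2.25 CPM, which were at the level of B cells.

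Of the crosslinking enzymes, Lox and Loxl1 were highest in fibroblasts and Loxl2 in pericytes, above smooth muscle in 4 of 6 libraries. Lox, the founding lysyl oxidase, had 320 ± 82.0 CPM in alveolar fibroblasts, 139 ± 20.1 in adventitial fibroblasts and 44.5 ± 16.2 in smooth muscle, with each step in 6 of 6 libraries. Alveolar type 1 cells followed at 38.4 ± 29.1, lower than smooth muscle in 4 of 6. Loxl1, the family member most tied to elastin upkeep, had 358 ± 33.2 in alveolar and 338 ± 35.5 in adventitial fibroblasts, higher in the former in 5 of 6 libraries, and 247 ± 41.6 in smooth muscle. Loxl2, which also crosslinks basement membrane collagen, was more even. It had 109.6 ± 19.9 CPM in pericytes, 95.2 ± 33.2 in smooth muscle, 72.0 ± 13.1 in adventitial fibroblasts, 68.9 ± 17.5 in peribronchial fibroblasts, 66.9 ± 5.79 in lymphatic endothelium, 64.7 ± 22.3 in mesothelial cells and 35.8 ± 11.3 in alveolar fibroblasts.

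Alveolar fibroblasts held the largest share of the UMIs of most members. Averaged over 6 libraries, they held 24.3% of all UMIs of retained cells but 85.2% of those of Mfap4, 82.0% of Lox, 74.4% of Loxl1, 63.0% of Fbn1 and 58.2% of Eln. Fbln2 was the exception, with 12.9% in alveolar fibroblasts and 49.8% in adventitial fibroblasts, a class with 4.08% of all UMIs. Arterial endothelium added 10.3% of Fbln2 from 1.66% of all UMIs. Alveolar type 1 cells gave 3.93% of the Fbln5 UMIs from 0.296% of all UMIs.

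The genes most like each member were ranked by Pearson r of log2(mean CPM + 1) over 19 class means, among 14194 genes. The classes of 1 library share a mouse and a preparation, so r is descriptive. Eln was closest to Fstl1 (r = 0.975), Hoxa3 (0.960) and Ltbp4 (0.957), and Ltbp4 was also among the nearest of Fbn1 (0.971) and Fbln2 (0.841). Ltbp4 encodes a latent TGF-beta binding protein that takes part in elastic fibre assembly. Mfap4 was closest to Gm9801 (0.990) and 9330159F19Rik (0.982), and Pdgfra, a fibroblast receptor and lineage marker used in gating, came next at 0.979. For Fbln5 the nearest was Lrrc41 (0.908). Among the members themselves, Fbln1 with Mfap5 (0.978) and Fbln1 with Loxl1 (0.972) were most alike. Fbln1 with Fbln5 (0.365) and Fbln5 with Mfap4 (0.381) were least alike, the pattern for which the pair of upstream sequences is shown.

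Summed over all retained cells, none of the 10 members differed between the labels. The test called 0 of 21630 genes (0% of all), and DESeq2 called 0 members (13.5% of all), while 0 members and 23.3% of all genes had an unadjusted p under 0.05. Fbn1 had 220, 209 and 184 CPM under the p16-DTR label and 407, 218 and 278 in the controls, with a log2 difference of -0.51 (adjusted p = 0.235, edgeR). Control library 1 was high, and the groups overlapped. Without it the log2 difference was -0.22. Mfap4 had 564, 373 and 393 against 822, 611 and 460 (log2 -0.46, adjusted p = 0.314, edgeR), and -0.21 without control library 1. Eln had 400, 306 and 342 against 515, 268 and 323, with a log2 difference of -0.03 (adjusted p = 0.951, edgeR). The median log2 difference of the members was -0.18, against -0.01 over all genes tested. The share of UMIs from mesenchymal classes was 29.0%, 26.2% and 21.6% under the p16-DTR label and 45.1%, 28.6% and 30.4% in the controls. Ordered by this share, the libraries fell in the order of Fbn1 but not in that of Mfap4 or Eln. The part of this share in the members' differences was not tested. The mesenchymal lineage was 26.0%, 22.4% and 17.7% of retained cells against 40.4%, 24.7% and 27.1% (exact permutation test, two-sided, p = 0.2, with 0.1 the smallest possible).

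Within classes, where the number of cells no longer enters, 4 of 131 tests of members passed at an adjusted p under 0.05. These tests covered the 19 classes with at least 20 cells in every library, and 0.579% of all gene tests in them passed. Eln rose in peribronchial fibroblasts and in venous endothelium, Mfap5 rose in alveolar fibroblasts, and Fbn1 fell in venous endothelium. In the higher direction 3 member tests passed (background 0.234%), and in the lower direction 1 passed (0.345%). The members were chosen with earlier results of these data known, so these shares are descriptive. Members missing from a test did not reach the count filter in that class.

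Eln in peribronchial fibroblasts showed the largest of these differences. Its level was 1542, 1219 and 1583 CPM under the p16-DTR label and 742, 545 and 727 in the controls. The lowest of the first group lay above the highest of the second. Means were 1448 ± 199 and 671 ± 110 (SD, n = 3 each), and the fitted log2 difference was 1.15 with a standard error of 0.14 (edgeR, adjusted p = 0.00613). In this class 1.73% of tested genes passed, 0.698% in the higher direction, and 9.61% were higher without overlap. After every cell was thinned to 5000 UMIs, 81.1% ± 2.10 of the cells labelled p16-DTR and 68.5% ± 5.50 of the control cells had an Eln UMI, against 94.0% and 87.9% without thinning. Thinning left out 14 and 16 shallower cells. In B cells, thinned in the same way, the share was 2.10% and 1.86%, and median depth was 12519 to 14721.5 UMIs there and 15630 to 19454 in peribronchial fibroblasts. The values rest on 172, 101 and 87 cells against 209, 113 and 158. The call held under every alternative tried.

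Markers of neighbouring cell types moved in that class too. The summed level of the smooth muscle list was 1470 to 2038 CPM under the p16-DTR label and 1388 to 1614 in the controls, and 1 of its markers passed, Actg2, a smooth muscle actin (log2 0.82, edgeR, adjusted p = 0.0281). The arterial list was lower, 143 to 248 against 370 to 595, through Efnb2 (log2 -1.20, edgeR, adjusted p = 0.0177). The immune list was 18.7 to 22.0 against 10.4 to 15.7, and the peribronchial list itself 11099 to 11813 against 12152 to 12737. Their part in the Eln difference was not tested. Eln in the smooth muscle class was 1136, 2378 and 1433 against 2438, 1930 and 2971, with overlapping groups and a log2 difference of -0.57 (edgeR, adjusted p = 0.895).

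**Figure D2:**
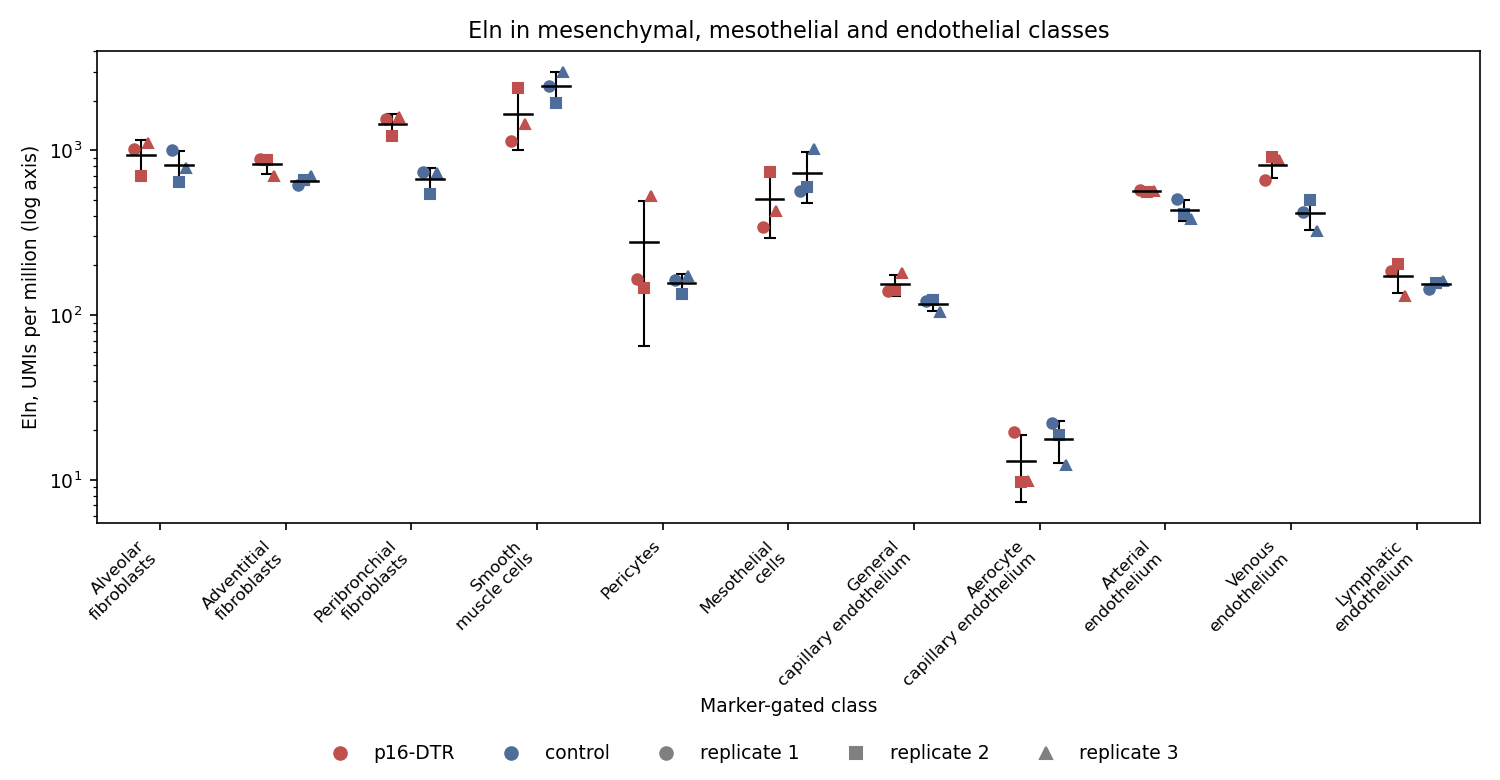
Eln in CPM (log axis) in 11 mesenchymal, mesothelial and endothelial classes, 1 point per library with the group mean as a line and the SD as bars (n = 3 each). The groups separate in peribronchial fibroblasts (545 to 742 in controls, 1219 to 1583 under the p16-DTR label) and in venous endothelium, and by less in arterial and general capillary endothelium and adventitial fibroblasts (697 to 888 against 612 to 694).

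Venous endothelium held calls in both directions. Eln stood at 661, 910 and 876 CPM under the p16-DTR label and at 420, 499 and 324 in the controls, without overlap. The log2 difference was 0.99 with a standard error of 0.17 (edgeR, adjusted p = 0.0175), in a class where 3.22% of tested genes passed, 1.14% in the higher direction and 2.07% in the lower. Without regard to the test, 9.62% of genes there were higher and 13.2% lower without overlap. The share of cells with an Eln UMI after thinning was 79.2% ± 3.65 against 69.4% ± 4.75. This call did not hold without control library 1 (adjusted p = 0.0641), without p16-DTR library 2 (0.0600), without p16-DTR library 3 (0.0770), or when p-values were adjusted over all classes together (0.0600), all by edgeR.

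Fbn1 went the other way in the same cells. It had 53.9, 48.6 and 58.9 CPM against 91.4, 93.3 and 87.5, with little spread within a group and a wide gap between them. The log2 difference was -0.74 with a standard error of 0.08 (edgeR, adjusted p = 0.00815), and 20.5% ± 2.97 against 31.2% ± 4.30 of thinned cells had an Fbn1 UMI. In B cells that share was 1.41% and 1.71%. The Fbn1 call held under every alternative tried. Fibrillin-1 is made chiefly by mesenchymal cells, and Fbn1 in venous cells was 72.3 ± 20.6 over the 6 libraries, lower than in adventitial fibroblasts in every one.

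In venous cells the adventitial fibroblast list summed to 17.6 to 19.5 CPM under the p16-DTR label and 31.9 to 44.3 in the controls, and its member Col14a1 passed (log2 -1.04, edgeR, adjusted p = 0.0126). Over the broader mesenchymal lineage list the ranges overlapped, at 350 to 431 against 343 to 395. The smooth muscle marker Acta2 was higher, at a mean of 7.78 against 2.06 (edgeR, adjusted p = 0.0358). Among endothelial markers Kit was higher (log2 1.15), and Bmx (-1.39) and the venous marker Selp (-0.75) were lower, all of them called. Venous cells were 7.35% ± 1.08 of endothelial cells against 9.44% ± 1.52. The part of these shifts in the Eln and Fbn1 differences was not tested.

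Mfap5 in alveolar fibroblasts was the smallest of the called differences. Its level was 183, 177 and 201 CPM under the p16-DTR label and 137, 123 and 124 in the controls, again without overlap. The log2 difference was 0.56 with a standard error of 0.07 (edgeR, adjusted p = 0.0415), where 1.23% of tested genes passed 0.425% in the higher direction, and 11.3% were higher without overlap. Cells with a Mfap5 UMI after thinning were 44.2% ± 1.56 against 35.5% ± 1.87. In B cells, the background class, Mfap5 stood at 1.23 ± 0.495 CPM over the 6 libraries. The call was lost without control library 1 (adjusted p = 0.114), control library 3 (0.119) or p16-DTR library 3 (0.139), by edgeR. In the same fibroblasts the mesenchymal lineage list was 4824 to 5322 against 4164 to 4242 CPM, and the peribronchial list, whose own cells also express Mfap5, was 173 to 191 against 151 to 170. Their part in the difference was not tested. Over the 4 mesenchymal classes tested for Mfap5, its log2 difference was above 0 in 4, against 50.2% of all gene tests in mesenchymal classes.

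**Figure D3:**
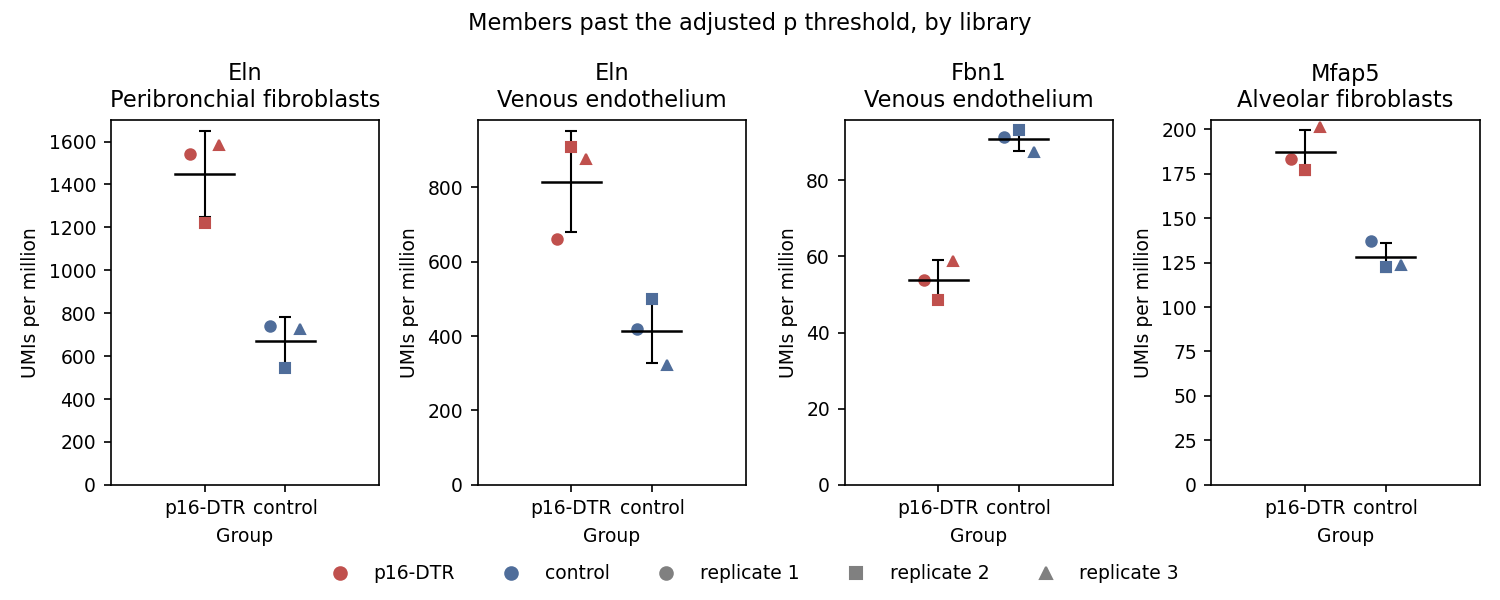
The 4 called member and class pairs in CPM, 1 point per library with group means and SD (n = 3 each): Eln in peribronchial fibroblasts and in venous endothelium, Fbn1 in venous endothelium and Mfap5 in alveolar fibroblasts. No control library overlaps a library labelled p16-DTR in any of the panels, and Fbn1 alone is lower under that label.

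Elsewhere Eln did not pass with the count filter, and without it edgeR called Eln in arterial endothelium, general capillary endothelium and pericytes (1.91% of all gene tests called). In arterial endothelium it was 572, 557 and 564 against 503, 410 and 384 CPM, without overlap (log2 0.41, edgeR, adjusted p = 0.131). General capillary endothelium had 140, 142 and 179 against 121, 123 and 104, also without overlap (log2 0.45, edgeR, adjusted p = 0.0761). DESeq2 called both, with adjusted p = 0.0235 and 0.00326, at backgrounds of 1.43% and 8.67% of genes in those classes. Higher levels without overlap were found for 8.02% and 8.94% of genes there. Adventitial fibroblasts had 888, 872 and 697 against 612, 656 and 694, barely without overlap (8.72% of genes there were higher without overlap, log2 0.33, edgeR, adjusted p = 0.278). Pericytes had 165, 146 and 524 against 162, 134 and 172, so p16-DTR library 3 alone was high. Over 17 classes tested for Eln the log2 difference was above 0 in 9, against 49.8% of all gene tests.

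Whether the called differences were larger in their class than in others was tested as an interaction of class and group. Members entered by their call in the same 6 libraries, which favours finding a difference between classes. Of 22 planned comparisons, 2 passed. The Eln difference was larger in peribronchial than in alveolar fibroblasts by 0.92 on the log2 scale (standard error 0.12, edgeR, adjusted p = 0.00645), where 1.15% of genes passed. Eln in alveolar fibroblasts was 1015, 695 and 1107 against 1005, 640 and 777 CPM, with overlap. The Eln difference in peribronchial fibroblasts was also compared with that in adventitial fibroblasts (0.83) and smooth muscle (1.77), where edgeR called 0% of genes (adjusted p = 0.124 and 0.204). DESeq2 called Eln in both, with adjusted p = 0.00668 (1.65% of genes called) and 0.000117 (0.0977%). The DESeq2 calls among the planned comparisons numbered 5, and included both that edgeR called (2.44% and 2.2% of genes). The remaining one was Eln in venous endothelium against smooth muscle (log2 1.66 by edgeR, adjusted p = 0.162 with 0.00762% of genes called, and 0.0233 by DESeq2 with 0.119%). The Fbn1 difference in venous endothelium was below that in alveolar fibroblasts by -0.64 (standard error 0.11, edgeR, adjusted p = 0.0332), where 1.06% of genes passed. No planned comparison of Mfap5 in alveolar fibroblasts with another class passed. Its lowest adjusted p was 0.191 by edgeR, against peribronchial fibroblasts, and 0.0758 by DESeq2, against adventitial fibroblasts. A further 8 comparisons of venous with other endothelial classes were added after seeing the data, and 1 passed. Fbn1 differed from lymphatic endothelium by -0.83 (standard error 0.12, edgeR, adjusted p = 0.0315, background 0.0852%), where it stood at 269, 271 and 275 against 252, 247 and 261 CPM. Against aerocyte (-0.03, adjusted p = 0.994), general capillary (-0.41, 0.159) and arterial endothelium (-0.53, 0.297) edgeR did not call it. In 4 of 5 endothelial classes the Fbn1 log2 difference was below 0, where 48.9% of all gene tests were above 0. For Eln, venous against general capillary endothelium gave 0.58 (edgeR, adjusted p = 0.0757, background 0.289%), which DESeq2 called (adjusted p = 0.000373, background 0.954%). With Fbn1 against lymphatic endothelium (adjusted p = 0.0169, background 0.378%), DESeq2 called 2 of the 8.

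**Figure D4:**
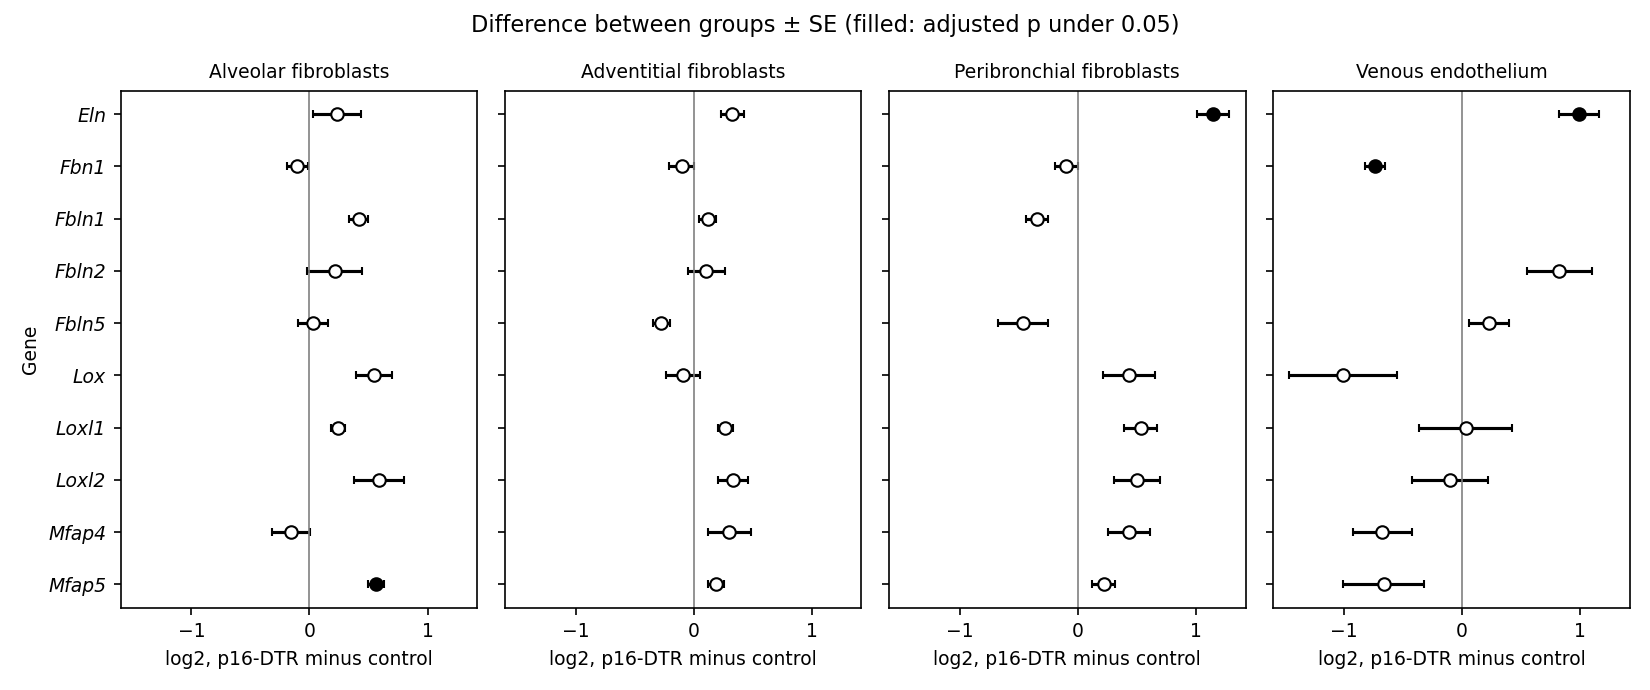
Log2 difference, p16-DTR label minus control, with its standard error for each member tested in alveolar, adventitial and peribronchial fibroblasts and in venous endothelium. Filled points have an adjusted p under 0.05 (edgeR): Eln at 1.15 in peribronchial fibroblasts, Eln at 0.99 and Fbn1 at -0.74 in venous endothelium, and Mfap5 at 0.56 in alveolar fibroblasts.

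Lysyl oxidases had no call by edgeR with all 6 libraries, the group alone and the count filter. Without p16-DTR library 1 edgeR called Lox in alveolar type 1 cells. Without the count filter, edgeR called Lox in alveolar type 1 cells and Loxl1 and Loxl2 in peribronchial fibroblasts. In the 5 mesenchymal classes 12 of their 14 log2 differences were above 0, against 50.2% of all gene tests there, with a median of 0.36 against 0.00. An unadjusted p under 0.05 was found in 8 of the 14, against 14.3% of all tests. In endothelial classes 4 of 12 were above 0, against 48.9% of all gene tests there, with a median of -0.13 against -0.005. Of these 12, 0 had an unadjusted p under 0.05, against 17.4% of all tests there. Over all classes 20 of 36 were above 0, against 49.8% of all gene tests. DESeq2 called 4 of them, Lox, Loxl1 and Loxl2 in alveolar fibroblasts (background 9.02%) and Loxl1 in adventitial fibroblasts (1.23%). Loxl1 had 383, 368 and 406 CPM against 340, 323 and 328 in alveolar fibroblasts (log2 0.24, edgeR, adjusted p = 0.0833). Adventitial fibroblasts had Loxl1 at 363, 385 and 360 against 304, 300 and 319 (log2 0.27, edgeR, adjusted p = 0.171). Peribronchial Loxl1 was 118, 102 and 139 against 89.4, 71.9 and 92.9 (log2 0.53, edgeR, adjusted p = 0.0748). The Loxl1 groups did not overlap in any of these 3 fibroblast classes, where 11.3%, 8.72% and 9.61% of tested genes were higher without overlap. Lox in alveolar fibroblasts was 378, 311 and 447 against 245, 312 and 228 (log2 0.55, edgeR, adjusted p = 0.101), and the groups overlapped at control library 2. Loxl2 had 30.2, 46.9 and 51.3 against 22.5, 27.7 and 36.1 there, with overlap (log2 0.59, edgeR, adjusted p = 0.165). In alveolar type 1 cells Lox was 21.9, 77.5 and 72.1 against 7.72, 21.5 and 29.9 (log2 1.43, edgeR, adjusted p = 0.173).

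Fibulins had no call by edgeR in 34 tests with all 6 libraries and the count filter, of which 7 had an unadjusted p under 0.05 (13.1% of all gene tests did), and 1 by DESeq2, which called 2.53% of all gene tests in these classes. Fbln1 pointed in opposite directions in 2 fibroblast classes. In alveolar fibroblasts it was 189, 235 and 200 CPM against 162, 153 and 158 (log2 0.42, edgeR, adjusted p = 0.0548), and this is the test that DESeq2 called. Without the count filter, or without p16-DTR library 1, edgeR called it too. In peribronchial fibroblasts it was 199, 191 and 213 against 257, 255 and 274 (log2 -0.34, edgeR, adjusted p = 0.0805). Neither pair of groups overlapped (11.3% of genes higher in the first class and 14.1% lower in the second without overlap), and the difference between the classes was not tested. Fbln5 in alveolar type 1 cells was 839, 637 and 749 against 594, 629 and 585 (log2 0.34, edgeR, adjusted p = 0.427), a narrow separation that 5.48% of genes shared in that direction. Adventitial Fbln5 was 112, 127 and 115 against 140, 137 and 152 (log2 -0.27, edgeR, adjusted p = 0.217). Fbln2 in adventitial fibroblasts, its main class, was 294, 409 and 352 against 366, 258 and 357, with a log2 difference of 0.11 and overlapping groups.

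Among microfibril genes, Mfap4 was even in its own main class. Alveolar fibroblasts had 1981, 1457 and 1860 CPM against 2000, 2325 and 1628 (log2 -0.15, edgeR, adjusted p = 0.627). The widest differences were in 2 classes where it is scarce. Mesothelial cells had 5.69, 17.1 and 2.40 against 64.2, 27.2 and 18.2 without overlap (log2 -2.07, edgeR, adjusted p = 0.875, in a class where 5.7% of genes were lower without overlap). These values rest on 23, 41 and 29 cells against 102, 35 and 63. Those of p16-DTR libraries 1 and 3 lay below every B cell value given below. Pericytes had 12.6, 9.34 and 4.85 against 15.7, 10.4 and 43.7 with overlap (log2 -1.42, edgeR, adjusted p = 0.468). Adventitial (0.30) and peribronchial fibroblasts (0.43) and smooth muscle (0.23) had log2 differences above 0, none of which passed. In all 12 tested classes outside the mesenchymal and mesothelial ones, its log2 difference was below 0, from -0.84 to -0.47. With the count filter none was called (lowest adjusted p 0.137, edgeR), 8 had an unadjusted p under 0.05 (13.1% of all gene tests did), and DESeq2 called 1, general capillary endothelium (log2 -0.71, adjusted p = 0.0262, with 8.67% of genes called). Without the count filter edgeR called Mfap4 lower in aerocyte capillary endothelium, mesothelial cells and pericytes, and higher in peribronchial fibroblasts. B cells, which do not make this protein, had 8.85, 6.01 and 5.84 against 17.6, 9.61 and 9.17. T cells had 8.52, 7.52 and 4.87 against 19.2, 9.37 and 8.57. As a share of the level in all retained cells of the same library, B cells stood at 1.49% to 1.61% under the p16-DTR label and 1.57% to 2.14% in the controls. For T cells the shares were 1.24% to 2.02% and 1.54% to 2.33%, with overlap. The level of Mfap4 over all cells thus moved with that in the lymphocytes, and its part in the differences of the other classes was not tested.

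**Figure D5:**
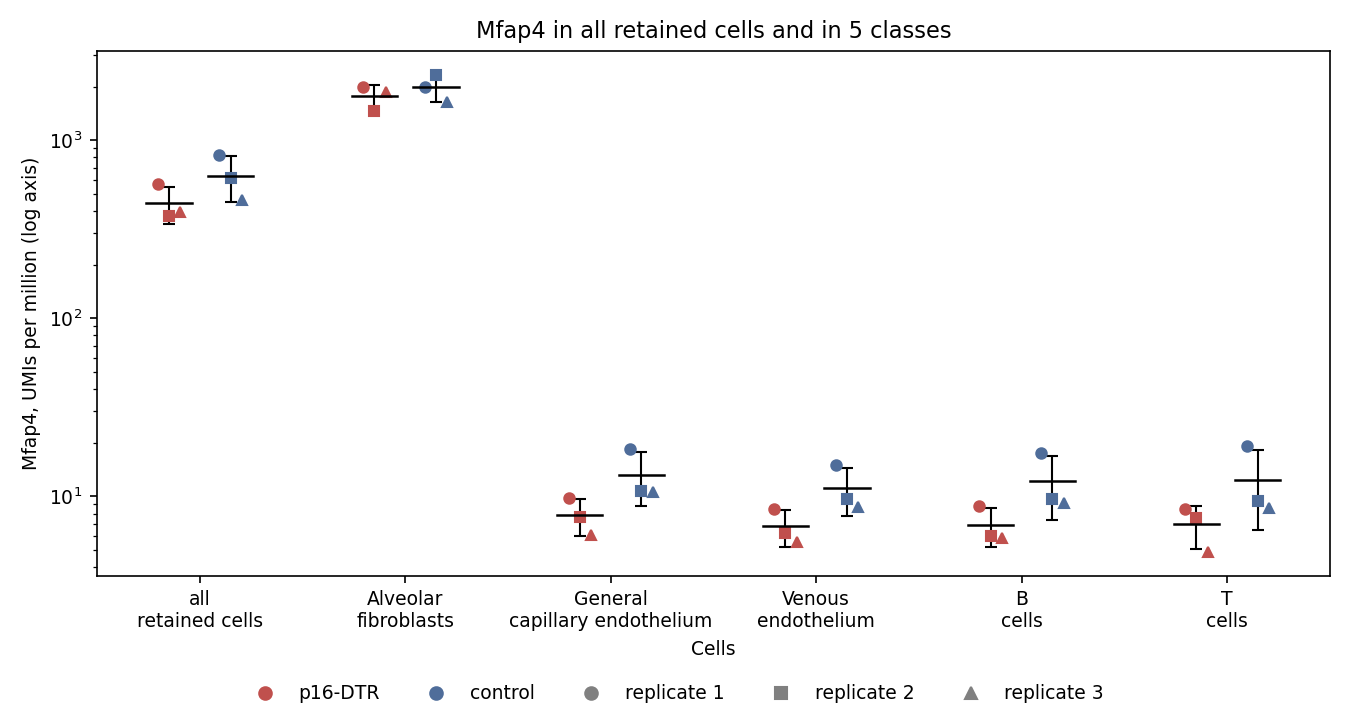
Mfap4 in CPM (log axis) in all retained cells and in 5 classes, 1 point per library with group mean and SD (n = 3 each). Alveolar fibroblasts lie between 1457 and 2325 with overlapping groups, while B cells lie between 5.84 and 17.6 with the controls higher.

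Other genes of the pathway were taken from lists chosen with earlier results of these data known. Their shares beside those of all genes are therefore descriptive. The assembly list held 18 genes (further fibrillins, fibulins, latent TGF-beta binding proteins, emilins, lysyl oxidases and ADAMTS proteins), and 5 of its 243 tests passed, all higher, against 0.234% of all gene tests. Of these 243, 61 had an unadjusted p under 0.05 (13.1% of all), and DESeq2 called 18 (2.53% of all), 16 of them higher. In peribronchial fibroblasts 3 of 16 tested passed beside Eln, against 0.698% of genes there. Ltbp1, which binds latent TGF-beta to microfibrils, had 373, 548 and 488 CPM against 229.8, 256 and 215 (log2 1.05, edgeR, adjusted p = 0.00916). Adamts10, a secreted metalloproteinase that binds fibrillin, had 390, 460.5 and 406 against 223, 205 and 249.5 (log2 0.93, edgeR, adjusted p = 0.00613). Adamtsl2, an ADAMTS-like microfibril protein, had 132, 144 and 139 against 55.6, 82.3 and 65.3 (log2 1.08, edgeR, adjusted p = 0.00858). None of these overlapped between groups, as for 9.61% of genes in this direction. In venous endothelium 2 of 15 passed (1.14% of genes there), Adamtsl4 at 33.4, 27.1 and 31.9 against 13.8, 18.5 and 22.4 (log2 0.75, edgeR, adjusted p = 0.0436) and Mfap2 at 144, 104 and 129.8 against 91.8, 90.4 and 92.2 (log2 0.48, edgeR, adjusted p = 0.0475). Of the list of 7 proteases that can degrade elastin, none of 64 tests passed by edgeR, 10 had an unadjusted p under 0.05, and DESeq2 called 3, all higher. Over all gene tests these shares were 13.1% and 2.53%. The log2 difference was above 0 in 46 of the 64, against 49.8% of all gene tests. As 1 example of these tests not called by edgeR, Mmp2, a gelatinase of fibroblasts, averaged 202 against 143 CPM in alveolar fibroblasts (log2 0.51, edgeR, adjusted p = 0.147).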

How the data were processed

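The deposited files hold raw UMI counts per gene and barcode, written by Cell Ranger 8.0.1 with build mm10, per the submitters' processing notes. Cell-calling and strand settings are not given in the sources used here. The members and lists were chosen with earlier results of these data known. A cell entered a lineage with at least 50% of its markers detected, and a class by the highest share of its markers with at least 3 detected. Cells passing 2 or more lineages were left out as likely doublets, with no doublet caller. An exception was made for cells passing the mesothelial list but not the immune or endothelial list. They were kept as mesothelial cells even when passing the mesenchymal or epithelial list. Counts were summed per library and class and tested by quasi-likelihood in edgeR 4.0.16 under R 4.3.3 (filterByExpr, TMM, group alone), adjusted by Benjamini-Hochberg over all genes of a class at 0.05; DESeq2 1.42.0 was an alternative. Interactions held the library as a block. The text names all members, the genes of both lists that edgeR called, called markers, and genes among the 5 most like a member. Mmp2 is named as an example that edgeR did not call. Genes matched GENCODE M21 by identifier for 30934 of 31054 features. On simulated data, 2-fold changes were recovered for 88 of 100 genes in peribronchial fibroblasts (10947 genes), 92 in venous endothelium (12245) and 93 in alveolar fibroblasts (16985), and 1.5-fold changes for 30, 66 and 67, with 4, 17 and 11 false calls. The changed genes of that simulation were drawn from those with higher counts, and all genes were given 1 common dispersion. Its recovery therefore does not cover genes of low count or of wider spread. The labels do not say that shared sample numbers pair mice. Deviations of same-numbered libraries correlated at -0.37 to 0.31 over 20 sums, and every pair was above 0.1 in 1 of them (T cells), so the numbers were not taken as pairs. Python 3.11.15, numpy 2.4.6, pandas 2.3.3, scipy 1.17.1 and matplotlib 3.10.9 were used.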

Additional observations from a re-analysis of the deposited data

Results flagged for a closer look

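The difference of Eln between the labels was not the same in 2 fibroblast classes, by a test of the interaction: peribronchial minus alveolar fibroblasts gave 0.92 on the log2 scale (edgeR, adjusted p = 0.00645). Members entered this test by a call in the same libraries, which favours a difference between classes. By the same kind of test, the Fbn1 difference in venous endothelium was below that in alveolar fibroblasts by -0.64 (edgeR, adjusted p = 0.0332) and below that in lymphatic endothelium by -0.83 (edgeR, adjusted p = 0.0315), the latter added after seeing the data. It was not called against aerocyte, arterial or general capillary endothelium, whose own log2 differences were also below 0.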

How the results depend on the processing

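Of the 4 member calls, Eln in peribronchial fibroblasts and Fbn1 in venous endothelium passed under every alternative run, and the exceptions for the other 2 stand beside them in the report. Size factors of another kind, scaling by library size, stricter cell filters and gates, and keeping cells of 2 lineages each left 4 calls. DESeq2 made 12 calls (10 higher, with 2.53% of all gene tests called) and no count filter 15 (11 higher, with 1.91%), each including the 4. Without 1 library the calls numbered 2 to 6, with 2 when control library 1 or p16-DTR library 3 was left out and 6 without p16-DTR library 1. With the replicate number as a block there were 7 calls, which added Lox in alveolar type 1 cells, Loxl1 in peribronchial fibroblasts and Loxl2 in alveolar fibroblasts. The labels do not state a pairing. With the block or without 1 library, the share of all gene tests called is not given here. Those counts are therefore not read as particular to the members. Of the 22 planned differences between classes, DESeq2 called 5. Over all retained cells, Fbn1, Fbln5, Mfap4 and Loxl2 kept their sign under every alternative run and the other 6 members did not. With the block, Eln went from -0.03 to 0.0196 and Mfap5 from -0.03 to 0.0182 on the log2 scale. Leaving out 1 library gave log2 differences of -0.22 to 0.30 for Eln, -0.38 to 0.0816 for Fbln1, -0.58 to 0.0137 for Fbln2, -0.0257 to 0.33 for Lox, -0.28 to 0.13 for Loxl1 and -0.20 to 0.30 for Mfap5. The share of alveolar fibroblasts was higher under the p16-DTR label by 2.14 percentage points of mesenchymal cells but differed by -6.39 points of all retained cells. The latter leaned on control library 1, with 5398 alveolar fibroblasts among 16884 retained cells, and was smaller in size without it. For peribronchial fibroblasts the difference was 0.152 points of mesenchymal cells (-0.312 to 0.434 without 1 library) and -0.230 points of all retained cells. The causes were not tested. For the low members Fbln2 and Loxl2, other immune classes, alveolar type 2 cells and ciliated cells lay near B cells (0.399 and 0.589 CPM). Both were far above B cells in lymphatic endothelium (78.2 and 66.9) and mesothelial cells (153 and 64.7). The part of depth in this was not tested.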
